A study of Homo sapiens with 3 samples.

Results

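The genes described here encode the subunits of integrins, the chains of laminins and the chains of collagens, measured by RNA-seq in PC3 cells with and without knockdown of USP16. They were chosen by symbol, with earlier results of these data known. A symbol had to be ITGA or ITGB and a number or letter, LAMA, LAMB or LAMC and a digit, or COL, a number, A and a number, with nothing after it. This gave 81 of the 59719 gene names of the table, of which 25 were integrin, 12 laminin and 44 collagen genes. A mean of at least 1 TPM (a level scaled for transcript length and for the sum of each library) over the 3 libraries was reached by 37 of them. These were 13 integrin, 8 laminin and 16 collagen genes, and they are the members counted in what follows. The members closest above the minimum were ITGA7 (mean 1.11 TPM) and COL9A3 (mean 1.24 TPM), and the closest below it was COL7A1 (mean 0.997 TPM).

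PC3 is an androgen-independent human prostate cancer cell line. The study silenced USP16, a ubiquitin-specific protease that removes ubiquitin from histone H2A and other proteins, and compared the expression profiles with and without it. All groups were PC3 cells with a lentiviral construct, namely shCON (control), shUSP16#1 and shUSP16#2 (both against USP16), with 1 library per condition. No difference given here therefore has a replicate check, no test across samples was possible, and agreement of the 2 hairpins compares 2 libraries that share the same control. The time from infection to RNA extraction, and whether the cells of a library came from 1 culture, were not given in the sources used here. The sense sequences of the 2 hairpins, which set the groups apart, each hold 21 bases:
shUSP16#1: gccagaagaaatcatgtttat
shUSP16#2: cggtgatattccacaagattt

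Integrins are receptors made of 1 alpha and 1 beta subunit that bind proteins of the extracellular matrix outside the cell and connect to the cytoskeleton inside it. Laminins are cross-shaped trimers of an alpha, a beta and a gamma chain and form the sheet-like network of basement membranes. Collagens are triple helices of 3 chains, some of which build a second network in basement membranes (type IV), some fibrils and some links between these structures. Normal prostate glands rest on a basement membrane, and basal epithelial cells hold on to it with hemidesmosomes, in which ITGB4 pairs with ITGA6 and binds a laminin that contains LAMA3 and LAMB3.

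USP16 was at 19.9 TPM in the shCON library, at 3.5 TPM in the shUSP16#1 library and at 1.08 TPM in the shUSP16#2 library. All changes below are differences of log2(TPM + 1) between a hairpin library and shCON, on which low genes change by less than their ratio. On it the USP16 level was lower by 2.22 under shUSP16#1 (log2 change -2.22) and by more under shUSP16#2 (-3.33). Over all 13637 genes tested, which met the same minimum, the median change was -0.17 under shUSP16#1 and -0.37 under shUSP16#2, so a gene at those values lay in the middle of all genes. In bulk libraries such as these, fewer cells that express a gene and less RNA of it per cell cannot be told apart. The epithelial keratins KRT8 and KRT18 stood between 622 and 947 TPM in all 3 libraries, while KLK3, a product of luminal prostate cells that PC3 cells lack, was listed at 0 in each. The fibroblast genes DCN and PDGFRA and the leukocyte gene TYROBP were listed at 0 in every library, and PTPRC was at 0.14 TPM or below. The 8 fibroblast markers summed to 11.5 to 15.0 TPM, most of it TAGLN, and the 8 leukocyte markers to 32.4 to 43.2 TPM, most of it CD68. The 6 endothelial markers summed to 0.47 TPM in shCON and to 1.03 and 1.43 TPM with shUSP16#1 and shUSP16#2, mainly through PECAM1 (0.14, 0.72 and 1.28 TPM), while CDH5 was lower with both hairpins (0.30, 0.10 and 0.11 TPM). Their part in the results was not tested.

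As a group the members moved little apart from the bulk of the genes, whereas single subunits of the same family went in opposite directions. Lower under both hairpins were 21 of the 37 members, against 57.2% of all genes tested, and higher under both were 11, against 24.5%. The remaining 5 went in opposite directions under the 2 hairpins. At least 2-fold lower under both hairpins were COL12A1 and ITGA6, which is 2 of 37 members or 5.41%, against 4.60% of all genes. At least 2-fold higher under both was ITGB4, 1 of 37 or 2.70%, against 1.14%. These shares lie near the background and say nothing particular about the members as a set. The median change of the 37 members was -0.19 under shUSP16#1 and -0.41 under shUSP16#2.

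**Figure D1:**
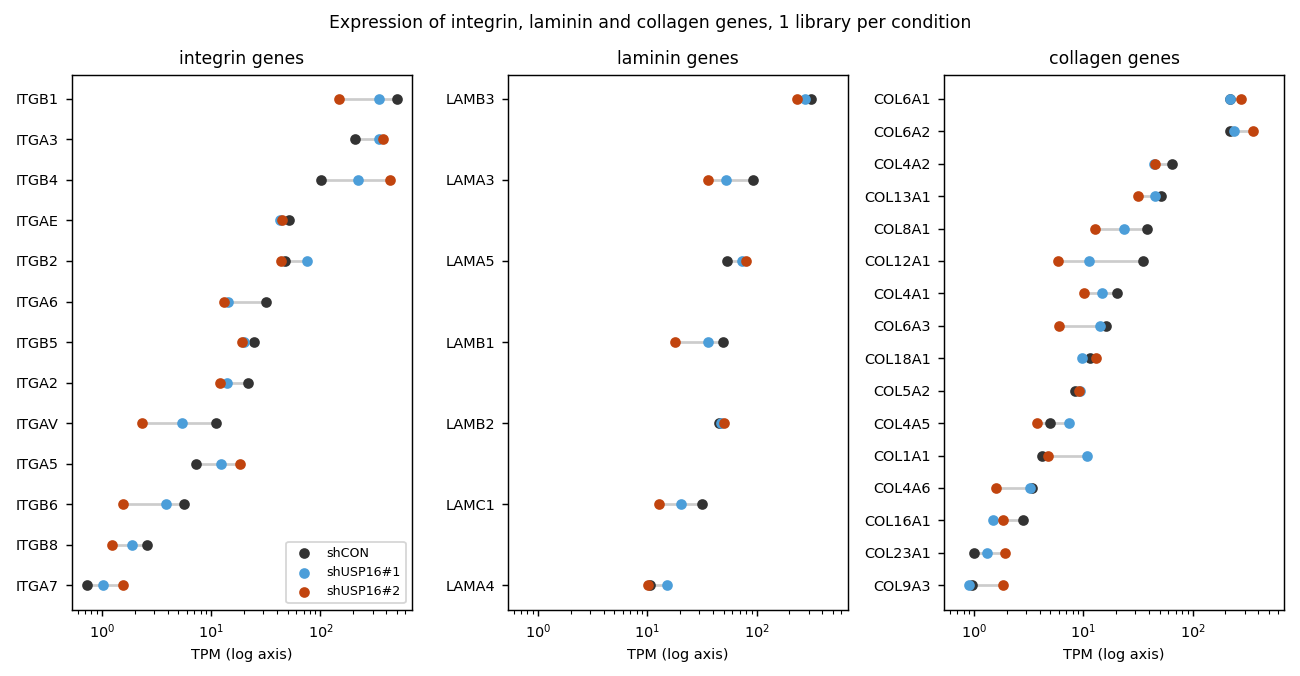
TPM of members that met the minimum, on a log axis, in shCON (black), shUSP16#1 (blue) and shUSP16#2 (red), 1 point per library and ordered within each family by the shCON level. The widest spans belong to ITGAV, ITGB4, COL12A1, ITGB6 and ITGB1, while LAMB2 and COL5A2 stayed almost in place.

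Among the integrin beta subunits the largest share of transcripts passed from ITGB1 to ITGB4. ITGB1, the beta subunit shared by most integrins that bind matrix, stood at 500.2 TPM in shCON and at 346 and 147 TPM with shUSP16#1 and shUSP16#2. ITGB4, the beta subunit of hemidesmosomes, stood at 102 TPM in shCON and at 219 and 431 TPM with shUSP16#1 and shUSP16#2. In both genes the shUSP16#2 library was farther from shCON than the shUSP16#1 library, ITGB1 downwards and ITGB4 upwards. The log2 changes were -0.53 and -1.76 for ITGB1 and 1.10 and 2.07 for ITGB4, under shUSP16#1 and shUSP16#2 respectively. ITGB1 held 73.3% of the summed TPM of all 8 beta subunits in shCON, 51.8% under shUSP16#1 and 22.8% under shUSP16#2. ITGB4 held 15.0%, 32.9% and 66.9% in the same order. The level of ITGB1 was thus 4.90 times that of ITGB4 in shCON, 1.58 times under shUSP16#1 and 0.341 times under shUSP16#2. The sum itself differed little between libraries, at 682 TPM in shCON and at 667 and 644 TPM with shUSP16#1 and shUSP16#2. ITGB4 lies on chromosome 17 from 75721328 to 75757818 on the forward strand, and ITGB1 on chromosome 10 from 32900319 to 33005792 on the reverse strand (GRCh38, GENCODE release 29).

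ITGB1 and ITGB4 also differ in base composition, which moved with the changes over all genes. The transcript of ITGB1 has a GC content of 38.5% and that of ITGB4 of 63.7%, while the median gene tested has 49.9%. After the GC trend, the median change of all genes of like GC content, was taken out and the overall median put back, ITGB1 had changes of -0.10 and -1.07 and ITGB4 of 0.67 and 1.46. The medians of all genes on this scale were -0.18 and -0.37, so under shUSP16#1 ITGB1 lay slightly above genes of like GC content and under shUSP16#2 below them. ITGB4 lay above them under both hairpins but was no longer 2-fold higher under shUSP16#1.

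ITGB5, ITGB6 and ITGB8 pair with ITGAV and bind RGD-containing proteins or latent TGF-beta. ITGB5 was at 24.4 TPM in shCON and at 19.98 and 19.2 TPM with shUSP16#1 and shUSP16#2. ITGB6 was at 5.66, 3.84 and 1.56 TPM in the same order, and ITGB8 at 2.60, 1.88 and 1.24 TPM. All 3 were lower under both hairpins. Their log2 changes were -0.28, -0.46 and -0.32 under shUSP16#1 and -0.33, -1.38 and -0.68 under shUSP16#2. Without the GC trend the changes were -0.41 and -0.52 for ITGB5 and -0.07 and -0.78 for ITGB6. ITGB6 shares 20.6% of its exon bases with AC092153.1 on the same strand, which was at 0.14 TPM or below. For ITGB8, whose transcript is the poorest in GC of all members (37.8%), the changes without the GC trend were 0.11 and -0.02. ITGB2, the beta subunit of leukocytes, stood at 47.0 TPM in shCON and at 75.6 and 43.4 TPM with shUSP16#1 and shUSP16#2, so the 2 hairpins disagreed in direction. The alpha subunits that pair with ITGB2 (ITGAL, ITGAM, ITGAX and ITGAD) summed to 0.18 TPM or less in every library.

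Among the alpha subunits that bind laminin, ITGA3 and ITGA6 went in opposite directions. ITGA3, which pairs with ITGB1, stood at 206 TPM in shCON and at 345 and 372 TPM with shUSP16#1 and shUSP16#2. ITGA6, the partner of ITGB4 in hemidesmosomes and a second partner of ITGB1, stood at 31.8 TPM in shCON and at 14.2 and 13.1 TPM with shUSP16#1 and shUSP16#2. Both hairpin libraries lay on the same side of shCON in each gene and close to each other. The log2 changes were 0.74 and 0.85 for ITGA3 and -1.11 and -1.22 for ITGA6, and without the GC trend 0.42 and 0.35 and -0.90 and -0.95. ITGA6 was then just short of 2-fold lower, as it was relative to the median of all genes, at -0.94 and -0.85. ITGA6 was at 0.154 times the level of ITGA3 in shCON, 0.0412 times under shUSP16#1 and 0.0352 times under shUSP16#2. ITGB4, its possible partner, was at a higher level than ITGA6 in each library, with 102 TPM against 31.8 TPM already in shCON. ITGA7, a laminin receptor of muscle, was at 0.73, 1.03 and 1.57 TPM and near the minimum.

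ITGA6 lies on chromosome 2 from 172427354 to 172506282 on the forward strand (GRCh38, GENCODE release 29). Of the 36 promoter windows of members found in RefSeq (GRCh38.p14, 300 bases each, 250 before and 50 after a start site, 27 of the 37 members), a window of ITGA6 was the only 1 with CACGTG, the E-box letters that c-Myc and related factors are known to bind. It is shown because the study is about USP16 and c-Myc and because ITGA6 was 1 of the 2 members lower by 2-fold. The other window of ITGA6 (chr2:172427336-172427635) and the window of COL12A1, which fell further, lack CACGTG. A part of c-Myc in the change of ITGA6 was not tested. The window shown, chr2:172427086-172427385 on the forward strand, has in capitals the E-box, a TATA box read on the other strand (TTTATA) and a GC box (GGGCGG):
ITGA6: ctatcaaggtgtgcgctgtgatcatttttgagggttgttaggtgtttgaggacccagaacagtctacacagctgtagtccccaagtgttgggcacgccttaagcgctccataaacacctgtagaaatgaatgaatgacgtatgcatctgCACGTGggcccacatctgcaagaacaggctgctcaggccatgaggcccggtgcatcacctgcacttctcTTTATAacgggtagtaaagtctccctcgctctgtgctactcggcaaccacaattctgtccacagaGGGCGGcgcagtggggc

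Searched on both strands, CACGTG was in 2.78% of the members' windows and in 7.26% of the 35116 windows of all genes, the GC box GGGCGG in 72.2% against 45.0%, CCAAT in 19.4% against 34.6% and TATAAA in 13.9% against 11.5%. None of these 4 letter strings holds another, and a match is a description of letters, not a binding site. Windows of ITGB4 and ITGA3 were not analysed here.

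Of the receptors for collagen and for RGD-containing proteins, ITGA2 and ITGAV were lower and ITGA5 higher. ITGA2, a collagen receptor subunit, stood at 21.9 TPM in shCON and at 13.9 and 12.1 TPM with shUSP16#1 and shUSP16#2. Its changes of -0.62 and -0.81 were -0.23 and -0.21 without the GC trend. The medians of all genes on that scale were -0.18 and -0.37, so ITGA2 lay near genes of like GC content. ITGAV, the alpha subunit shared by several receptors for vitronectin and latent TGF-beta, stood at 11.0, 5.37 and 2.32 TPM in shCON, shUSP16#1 and shUSP16#2. ITGA5, the alpha subunit of the main fibronectin receptor, stood at 7.28, 12.2 and 18.2 TPM. ITGAV and ITGA5 changed places, ITGAV being at 1.52 times the level of ITGA5 in shCON, 0.440 times under shUSP16#1 and 0.127 times under shUSP16#2. The log2 changes were -0.92 and -1.86 for ITGAV and 0.67 and 1.22 for ITGA5. They were -0.49 and -1.17 and 0.40 and 0.80 without the GC trend, in the same directions. ITGAE, which pairs with ITGB7 on lymphocytes, stood at 51.6, 42.6 and 44.1 TPM, while ITGB7 did not exceed 0.51 TPM. The intronless gene HASPIN lies within ITGAE on the opposite strand and shares 427 bases with its exons, which is 6.41% of them. HASPIN was at 9.38, 4.56 and 4.46 TPM, and whether the counting used strand was not given in the sources used here.

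**Figure D2:**
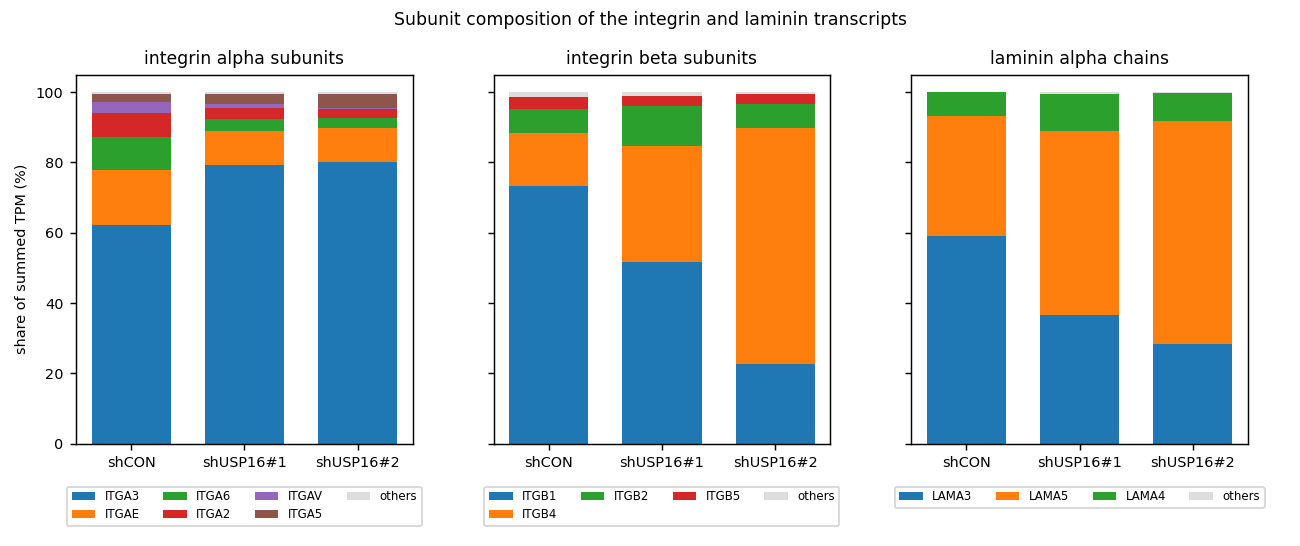
Share of each subunit in the summed TPM of the 17 integrin alpha genes (left), the 8 integrin beta genes (middle) and the 5 laminin alpha genes (right), in percent, for the 3 libraries (1 bar each). ITGB1 drops from 73.3% to 22.8% and ITGB4 climbs from 15.0% to 66.9% of the beta subunits, and LAMA5 takes over from LAMA3 as the leading laminin alpha chain.

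The alpha subunits summed to 331 TPM in shCON and at 435 and 463 TPM with shUSP16#1 and shUSP16#2, and ITGA3 alone made up 62.2%, 79.3% and 80.2% of them. ITGA6 made up 9.59%, 3.26% and 2.82%. Over the 13 integrin genes, 8 were lower (61.5%, beside 57.2% of all genes) and 4 higher (30.8%, beside 24.5%) under both hairpins, with a median change of -0.28 under shUSP16#1 and -0.33 under shUSP16#2, beside -0.17 and -0.37 over all genes. The summed TPM of all 25 integrin genes came to 1014 in shCON and to 1102 and 1107 with shUSP16#1 and shUSP16#2.

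Of the 8 laminin chains 5 were lower under both hairpins, a share of 62.5% that lies near the 57.2% of all genes, and LAMA5 and LAMB2 were higher under both. LAMA3, the alpha chain of the laminin of hemidesmosomes, stood at 92.4 TPM in shCON and at 52.2 and 36.0 TPM with shUSP16#1 and shUSP16#2. LAMA5, the widespread alpha chain of adult basement membranes, stood at 53.5, 74.1 and 80.1 TPM. The level of LAMA3 was 1.73 times that of LAMA5 in shCON, but 0.705 times under shUSP16#1 and 0.449 times under shUSP16#2. LAMA3 had changes of -0.81 and -1.34, and -0.83 and -1.29 without the GC trend, since its GC content (50.7%) is close to that of the median gene. LAMA5, with a GC content of 66.4%, had changes of 0.46 and 0.57 that were 0.02 and -0.07 without the trend, above the medians of all genes on that scale but not above shCON under shUSP16#2. LAMA4, a chain of vessel and muscle laminins, was at 10.6, 15.1 and 10.1 TPM and the hairpins disagreed in direction.

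LAMB3, a beta chain of the hemidesmosome laminin, changed less than LAMA3. LAMB3 stood at 319 TPM in shCON and at 278 and 235 TPM with shUSP16#1 and shUSP16#2. LAMB3 was thus at 3.45 times the level of LAMA3 in shCON, 5.33 times under shUSP16#1 and 6.53 times under shUSP16#2. LAMB1 and LAMC1, the chains of the most common laminins, were lower as well. LAMB1 was at 49.7, 36.2 and 18.01 TPM (changes -0.45 and -1.42), and LAMC1 at 31.7, 20.4 and 12.9 TPM (changes -0.61 and -1.24). LAMB2, which replaces LAMB1 in laminins of kidney and synapse, was at 44.9, 47.6 and 50.04 TPM, so that LAMB1 went from 1.11 times to 0.760 and 0.360 times its level. The changes of LAMB2, 0.08 and 0.15, were -0.24 and -0.34 without the GC trend, and those of LAMB1 were then -0.40 and -1.37. Within the beta chains LAMB3 kept its share, with 77.1%, 76.9% and 77.5% of their summed TPM.

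The 2 laminin genes higher under both hairpins make up 25.0%, beside 24.5% of all genes, and none of the 8 was 2-fold lower or higher under both. Their median change was -0.26 under shUSP16#1 and -0.62 under shUSP16#2, and -0.37 and -0.80 without the GC trend. The summed TPM of all 12 laminin genes came to 666 in shCON and to 576 and 479 with shUSP16#1 and shUSP16#2. All genes tested were likewise lower at the median under shUSP16#2 (-0.37) than under shUSP16#1 (-0.17).

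**Figure D3:**
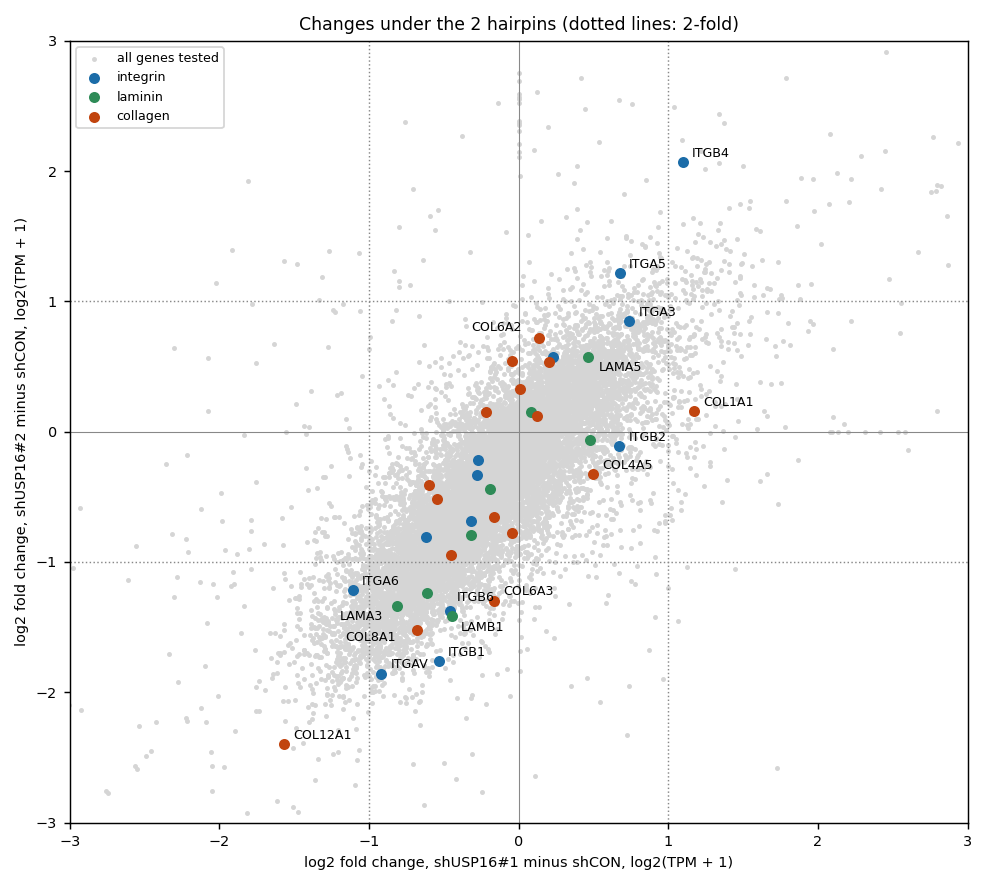
Log2 change of log2(TPM + 1) under shUSP16#1 (horizontal) against that under shUSP16#2 (vertical), both relative to the same shCON library, for all 13637 genes tested (grey) and for the integrin (blue), laminin (green) and collagen (red) members. ITGB4 lies beyond the 2-fold lines at the upper right, COL12A1 and ITGA6 at the lower left, and a few grey genes beyond 3 log2 units are outside the frame.

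COL12A1 showed the largest decrease of all members. This fibril-associated collagen, which links fibrils of type I collagen to other matrix, stood at 35.1 TPM in shCON and at 11.2 and 5.83 TPM with shUSP16#1 and shUSP16#2, with log2 changes of -1.57 and -2.40. It stayed 2-fold lower under both hairpins without the GC trend, at -1.42 and -2.17, and relative to the median of all genes, at -1.40 and -2.03. COL12A1 lies on chromosome 6 from 75084326 to 75206051 on the reverse strand (GRCh38, GENCODE release 29). COL16A1, another fibril-associated chain, was at 2.78, 1.49 and 1.85 TPM, with changes of -0.60 and -0.41. Its changes were -1.01 and -1.002, just past 2-fold, once the GC trend was removed. COL9A3, a cartilage chain, was at 0.96, 0.90 and 1.85 TPM.

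The type IV collagens of basement membranes are encoded in head-to-head pairs. COL4A1 stood at 20.45 TPM in shCON and at 14.7 and 10.1 TPM with shUSP16#1 and shUSP16#2, and COL4A2 at 65.0, 44.2 and 45.1 TPM. Both were lower under both hairpins, with changes of -0.45 and -0.95 for COL4A1 and of -0.54 and -0.52 for COL4A2. Without the GC trend they were -0.66 and -1.24 for COL4A1 and -0.96 and -1.04 for COL4A2, which was then just short of 2-fold under shUSP16#1. The level of COL4A2 was 3.18 times that of COL4A1 in shCON, 3.01 times under shUSP16#1 and 4.45 times under shUSP16#2. The common type IV trimer holds 2 chains of COL4A1 and 1 of COL4A2. COL4A5 was at 4.94, 7.37 and 3.73 TPM and COL4A6 at 3.41, 3.28 and 1.57 TPM. This pair moved together under shUSP16#2 but not under shUSP16#1, where COL4A5 was higher by 0.49 on the log2 scale and COL4A6 had a change of -0.04. Type IV chains summed to 93.9, 70.4 and 60.6 TPM.

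The start sites of COL4A1 and COL4A2 are 127 bases apart, and their promoter windows share 226 bases (chr13:110307108-110307333). Those of COL4A5 and the nearer start of COL4A6 are 380 bases apart and the windows share 121 bases (chrX:108439588-108439708). The windows of COL4A2 (chr13:110307034-110307333, forward strand) and COL4A5 (chrX:108439588-108439887, forward strand) are shown because each holds the stretch that the windows of a pair share. The COL4A2 window reaches across both start sites of its pair, and the COL4A5 window covers only the side of the gap next to COL4A5. Capitals mark GC boxes (GGGCGG) and CCAAT boxes (CCAAT, or ATTGG on the other strand). The first window has a GC content of 77.7% and the second of 49.3%, both from RefSeq, GRCh38.p14:
COL4A2: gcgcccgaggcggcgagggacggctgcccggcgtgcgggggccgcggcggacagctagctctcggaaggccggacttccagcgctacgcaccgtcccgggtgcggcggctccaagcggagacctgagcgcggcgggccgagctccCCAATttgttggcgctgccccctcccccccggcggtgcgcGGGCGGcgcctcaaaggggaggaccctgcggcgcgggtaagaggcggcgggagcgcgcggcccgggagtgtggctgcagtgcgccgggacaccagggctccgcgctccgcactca
COL4A5: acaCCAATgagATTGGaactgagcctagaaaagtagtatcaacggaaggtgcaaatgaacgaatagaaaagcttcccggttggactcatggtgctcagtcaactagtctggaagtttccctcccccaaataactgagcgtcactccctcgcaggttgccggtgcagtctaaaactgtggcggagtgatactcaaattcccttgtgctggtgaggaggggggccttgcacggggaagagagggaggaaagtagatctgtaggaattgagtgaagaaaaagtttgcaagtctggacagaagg

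Type VI collagen, which forms beaded filaments near basement membranes, was the most abundant collagen, and its chains did not move together. COL6A1 stood at 221 TPM in shCON and at 222 and 277 TPM with shUSP16#1 and shUSP16#2, and COL6A2 at 218, 240 and 360 TPM. COL6A3, the third chain of the same trimer, stood at 16.2, 14.3 and 5.99 TPM. The 3 chains had log2 changes of 0.01, 0.14 and -0.17 under shUSP16#1 and of 0.33, 0.72 and -1.30 under shUSP16#2. The level of COL6A1 was 13.6 times that of COL6A3 in shCON, 15.5 times under shUSP16#1 and 46.2 times under shUSP16#2. The transcript of COL6A3 has a GC content of 53.2%, and those of COL6A1 and COL6A2 have 63.5% and 66.4%. Without the GC trend the changes under shUSP16#2 were -0.28, 0.08 and -1.44, so the gap to COL6A3 remained under that hairpin. Under shUSP16#1 they were -0.41, -0.30 and -0.27, and COL6A3 was then no lower than the other chains.

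COL8A1, a short-chain collagen of vessel walls and the cornea, stood at 38.6 TPM in shCON and at 23.8 and 12.8 TPM with shUSP16#1 and shUSP16#2. COL8A1 had changes of -0.68 and -1.52, and of -0.85 and -1.78 without the GC trend. Its possible partner COL8A2 was at 0.07 TPM or below. COL13A1, a collagen anchored in the cell membrane, was at 51.0, 45.3 and 32.0 TPM, and COL23A1, of the same kind, at 1.00, 1.30 and 1.90 TPM. COL18A1, the basement membrane collagen that yields endostatin, was at 11.6, 9.82 and 13.0 TPM. It shares 1401 exon bases, 16.4% of its own, with SLC19A1 on the opposite strand, which was at 34.7, 30.1 and 26.5 TPM.

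Of the fibril-forming collagens 2 chains reached the minimum. COL1A1 stood at 4.19 TPM in shCON and at 10.7 and 4.78 TPM with shUSP16#1 and shUSP16#2, so the higher level belonged to 1 hairpin. COL1A2, the other chain of type I collagen, did not exceed 0.20 TPM, and COL3A1 did not exceed 0.02 TPM. COL5A2 was at 8.38, 9.23 and 9.19 TPM without COL5A1, the chain it is usually found with, which reached 0.34 TPM at most.

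Over the 16 collagen genes, 8 were lower (50%, beside 57.2% of all genes) and 5 higher (31.2%, beside 24.5%) under both hairpins. The median change was -0.11 under shUSP16#1 and -0.37 under shUSP16#2, and -0.43 and -0.72 without the GC trend, since the collagen transcripts are rich in GC (median 60.1%). The summed TPM of all 44 collagen genes came to 706 in shCON and to 666 and 789 with shUSP16#1 and shUSP16#2, of which COL6A1 and COL6A2 made up the larger part.

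Whether receptors and matrix lay apart as groups depended on the scale. The 24 laminin and collagen genes had a median change of -0.17 under shUSP16#1 and -0.42 under shUSP16#2. The median of the 13 integrin genes minus that of the matrix genes was -0.11 under shUSP16#1 and 0.09 under shUSP16#2, so its sign depended on the hairpin. Without the GC trend it was 0.31 and 0.40, the integrins then lying above the matrix genes under both hairpins. Lower under both hairpins on that scale were 18 of the 24 matrix genes (75.0%) and 7 of the 13 integrin genes (53.8%), against 61.4% of all genes. Higher under both were 2 matrix and 3 integrin genes, against 17.1% of all genes.

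The base composition of the transcripts moved with the changes of the members. The rank correlation of change with GC content was 0.54 under shUSP16#1 and 0.75 under shUSP16#2 across the 37 members, and 0.54 and 0.63 across all genes with a known GC content. Genes are not replicates, and all points of a hairpin share the same 2 libraries. The 18 members lowest in GC content (37.8% to 54.6%) had median changes of -0.45 and -1.23, and 15 of them were lower under both hairpins. The 18 highest in GC content (55.4% to 67.4%) had median changes of 0.11 and 0.24, and 5 of them were lower under both. Of all genes tested, 57.2% were lower under both, and the share among genes of like GC content was not computed. The medians of all genes were -0.61 and -1.06 near a GC content of 38.3% and -0.24 and -0.41 near 48.4%. Near 61.3% they were 0.14 and 0.12, so the direction of the contrast was shared with all genes. The part of base composition in the result was not tested, and with 1 library per condition a difference between libraries in their preparation cannot be told apart from a difference between the cells.

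**Figure D4:**
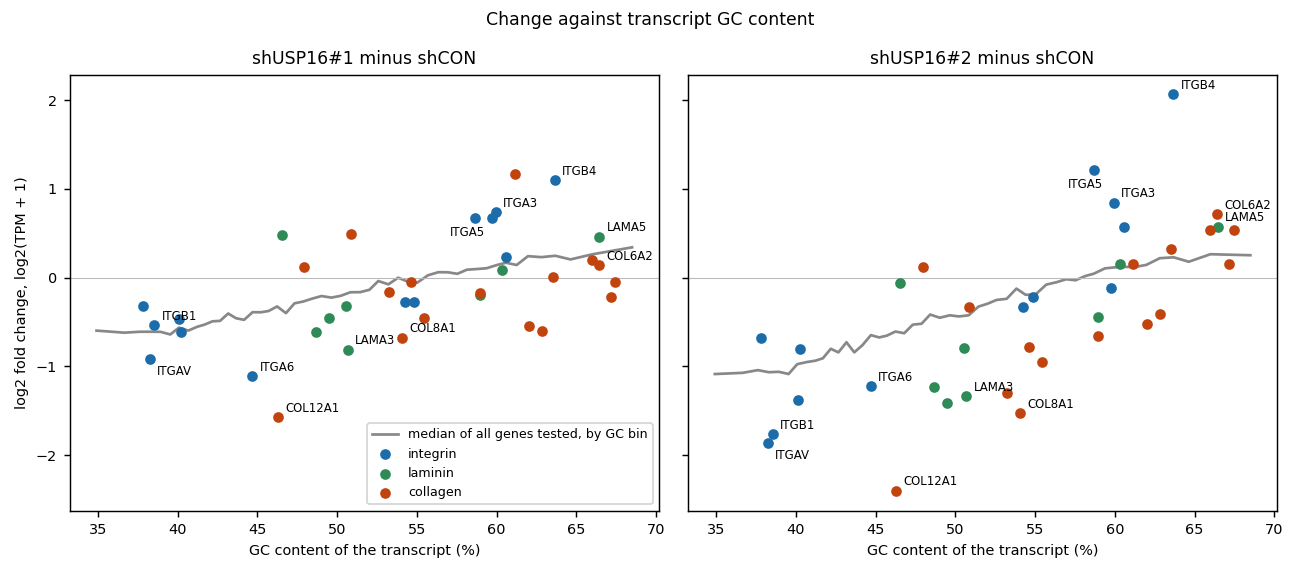
Log2 change of log2(TPM + 1) of the members under shUSP16#1 (left) and shUSP16#2 (right) against the GC content of their transcripts in percent, with the median of all genes tested in 50 bins of GC content (grey line). ITGAV and ITGB1, low in GC content, lie at negative changes and ITGB4 and ITGA3, higher in GC content, at positive ones. COL12A1, COL8A1 and LAMA3 lie below the grey line and ITGB4 and ITGA5 above it in both panels.

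The 2 hairpins differed in how many members passed 2-fold. Under shUSP16#1, 2 members were at least 2-fold lower (ITGA6 and COL12A1), against 5.79% of all genes, and 2 higher (ITGB4 and COL1A1), against 2.83%. Under shUSP16#2, 10 members were at least 2-fold lower, which is 27.0% against 19.5% of all genes, and 2 higher (ITGB4 and ITGA5), against 2.80%. The 10 were ITGA6, ITGAV, ITGB1, ITGB6, LAMA3, LAMB1, LAMC1, COL12A1, COL6A3 and COL8A1. Relative to the median of all genes, 1 member was 2-fold lower under both hairpins (COL12A1), against 2.00% of all genes, and 1 higher (ITGB4), against 2.50%. Without the GC trend, 2 members were 2-fold lower under both hairpins (COL12A1 and COL16A1), against 2.00%, and 0 higher, against 0.782%. COL12A1 was the member that stayed 2-fold lower on each of these 3 scales.

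Genes that work with the members were read from 5 lists, each with counts of those that met the minimum of 1 TPM. The counts read against the shares of all genes under both hairpins. Of these genes, 57.2% were lower, 24.5% higher, 4.60% at least 2-fold lower and 1.14% at least 2-fold higher. Of 35 genes for adhesion plaques and integrin adaptors, 19 were lower (54.3%) and 11 higher (31.4%) under both hairpins, with median changes of -0.10 and -0.25. The 2 that were at least 2-fold lower under both were FERMT1, an epithelial kindlin that binds the tails of integrin beta subunits, at 65.4, 31.3 and 22.8 TPM in shCON, shUSP16#1 and shUSP16#2, and CRK, a signalling adaptor, at 20.3, 9.33 and 7.6 TPM. Of 24 other matrix proteins, 13 were lower (54.2%) and 6 higher (25.0%), with medians of -0.19 and -0.59. The 2 lower by 2-fold were THBS1, a thrombospondin, at 509 TPM in shCON and at 251 and 157 TPM with shUSP16#1 and shUSP16#2, and the fibrillin FBN2, at 16.4, 7.37 and 4.44 TPM.

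Enzymes that modify, fold or crosslink collagen held changes in both directions. Of 27 tested, 14 were lower (51.9%) and 9 higher (33.3%) under both hairpins, against 57.2% and 24.5% of all genes, with medians of -0.10 and -0.07. PLOD2, a lysyl hydroxylase, was at 62.9, 30.01 and 23.2 TPM, and LOXL3, a lysyl oxidase, at 11.9, 4.26 and 3.33 TPM, both at least 2-fold lower. LOXL4, of the same family as LOXL3, was at 1.06 TPM in shCON and at 4.21 and 10.2 TPM with shUSP16#1 and shUSP16#2, at least 2-fold higher. Of 23 matrix proteases and their inhibitors, 13 were lower (56.5%) and 6 higher (26.1%), with medians of -0.15 and -0.24, and the membrane proteases ADAM9 (47.4, 18.7 and 16.8 TPM) and ADAM10 (28.97, 12.9 and 12.5 TPM) were 2-fold lower. Of 20 other matrix receptors and membrane partners of integrins, 9 were lower and 9 higher (45.0% each), with medians of -0.05 and 0.04, and DCBLD2, a neuropilin-like membrane protein, was 2-fold lower at 110 TPM in shCON and at 49.9 and 31.5 TPM with shUSP16#1 and shUSP16#2. With the GC trend removed, LOXL3 stayed 2-fold lower (-1.53 and -1.90) and LOXL4 2-fold higher (1.12 and 2.09) under both hairpins. The others named here no longer passed 2-fold, and the matrix protease MMP9 passed it (-1.08 and -2.59). Of all genes, 2.00% were 2-fold lower and 0.782% 2-fold higher under both hairpins on that scale.

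**Figure D5:**
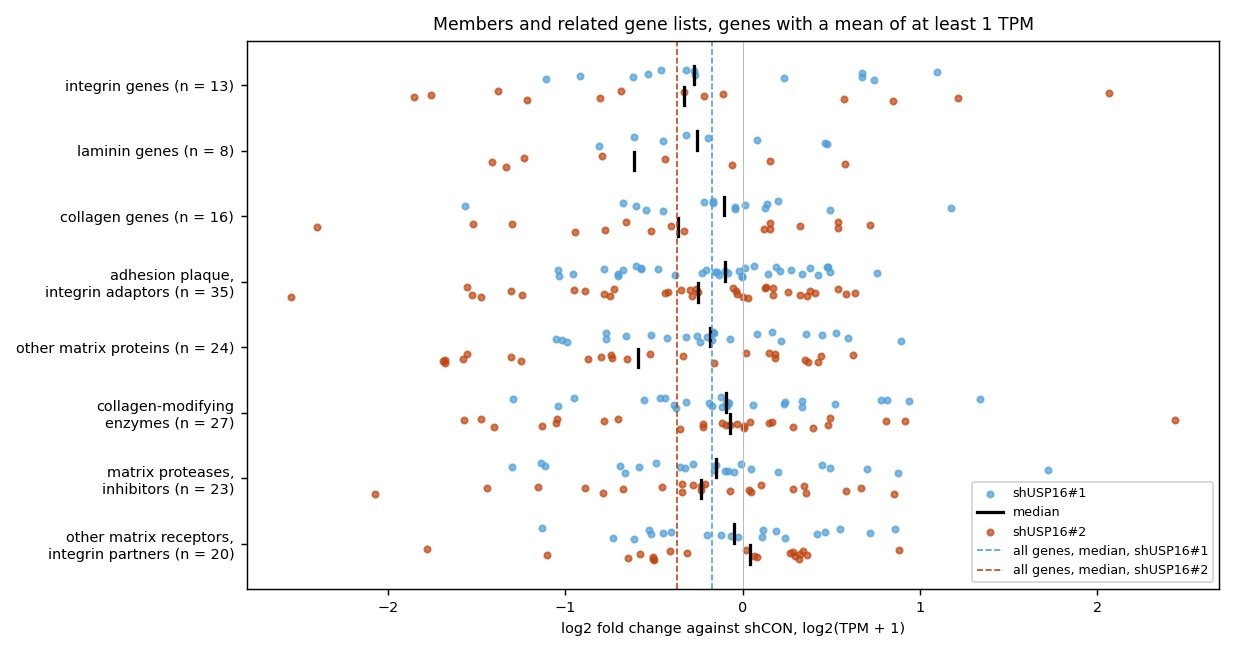
Log2 change of log2(TPM + 1) against shCON for each gene that met the minimum (1 point per gene, shUSP16#1 in blue and shUSP16#2 in red), by member family and by list of related genes, with the median of each as a black bar. Dashed lines give the medians of all genes tested, -0.17 and -0.37. Each list spreads to both sides, and the laminin genes and the other matrix proteins have the lowest medians under shUSP16#2.

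Below the minimum were 44 members, 12 of them integrin, 4 laminin and 28 collagen genes, and 10 were listed at 0 in all 3 libraries. COL7A1, the collagen of the fibrils that anchor basement membranes, was the highest of them, at 0.39 TPM in shCON and at 1.77 and 0.83 TPM with shUSP16#1 and shUSP16#2. COL17A1, a hemidesmosome collagen in the cell membrane, was at 0.77, 1.16 and 0.40 TPM, and COL15A1, a basement membrane collagen, at 0.43, 0.32 and 0.79 TPM. The 10 at 0 were ITGA11, ITGA8, ITGA4, ITGAD, COL9A1, COL19A1, COL6A5, COL22A1, COL14A1 and COL25A1. The depth of the libraries is unknown from TPM, so how far below the lowest listed value these genes lie cannot be given.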

How the data were processed

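RNA-seq was made from total RNA with a TruSeq kit in 3 libraries of PC3 cells. Values are TPM, which the authors computed and deposited to 2 decimals in a table of 60930 entries. The submitters' processing notes name CASAVA, HISAT2 and the build hg19. The quantification tool and annotation were not given in the sources used here. The table holds no coordinates. TPM keeps no depth, so precision cannot be given. Another 3 columns repeating sample columns were not used.

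Entries repeating a name (1211) were left out, and the 13637 genes whose mean reached 1 TPM were compared as log2(TPM + 1). A member counted as changed if both hairpins passed 2-fold. GC content came from GENCODE release 29 transcripts (13296 genes). To remove its trend, the median change of each of 50 GC bins was taken off and the overall median put back. Promoters came from RefSeq. The text names the members above the minimum (1 laminin gene is counted but not reported here), the 3 highest below it, USP16, and genes of the 5 related lists past 2-fold. Members and lists were chosen with earlier results of these data known. The script was tested on simulated data with 200 changed genes. The 8 alternatives are given at the end. Scripts ran in Python 3.11.15 with pandas 2.3.3 on numpy 2.4.6, rank correlations in scipy 1.17.1, and figures in matplotlib 3.10.9.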

Additional observations from a re-analysis of the deposited data

Results flagged for a closer look

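In 5 members the 2 hairpin libraries lay on opposite sides of shCON. The change under shUSP16#2 minus that under shUSP16#1, in log2(TPM + 1), was -0.78 for ITGB2, -0.54 for LAMA4 and -0.82 for COL4A5, all 3 higher than shCON under shUSP16#1 and lower under shUSP16#2. It was 0.58 for COL9A3 and 0.37 for COL18A1, which were lower than shCON under shUSP16#1 and higher under shUSP16#2. Relative to the median of all genes, ITGB2 (0.84 and 0.26), LAMA4 (0.65 and 0.31) and COL4A5 (0.67 and 0.04) lay above it under both hairpins. So did COL9A3 (0.13 and 0.91), while COL18A1 did not (-0.05 and 0.52). Members with opposite directions numbered 6 on that scale and 7 without the GC trend. The differences between the hairpins were not tested, since each condition had 1 library.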

How the results depend on the processing

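No paired analysis was possible because no condition had more than 1 library. A pseudocount of 0.1 TPM gave a USP16 change of -3.28 instead of the mean of -2.77 and added ITGAV to the members 2-fold lower, which made 3. Relative to the median of all genes, the mean changes were -2.50 for USP16, -0.036 for the integrin median, -0.17 for the laminin median, 0.048 for the collagen median, now reversed, and -0.094 for the matrix median, with 1 member 2-fold lower and 5 collagens lower under both hairpins. Without a minimum level, the medians were -0.014 for integrins, -0.038 for laminins, 0.0105 for collagens and 0.0100 for matrix genes, and integrin minus matrix was -0.024, the last 3 reversed. With shUSP16#1 alone the USP16 change was -2.22, integrin minus matrix reversed to -0.11, and 2 members were 2-fold higher. With shUSP16#2 alone the USP16 change was -3.33, with 10 members 2-fold lower and 2 higher. Without the GC trend the values were -2.22 for USP16, -0.59 for the collagen median, -0.59 for the matrix median and 0.37 for integrin minus matrix, with 0 members 2-fold higher and 5 higher under both hairpins. A minimum of 5 TPM and rescaling over protein-coding genes moved none of these values by over 0.2 (log2) or 1.5 times (counts). Among 47 single genes, those above 1 TPM that the text names by rule, the mean change took the other sign in 9 without the GC trend (ITGA7, ITGB2, ITGB8, LAMA5, LAMB2, COL9A3, COL6A1, COL6A2 and COL23A1) and in 2 relative to the median of all genes (ITGAE and COL18A1), and in 1 with shUSP16#1 alone and 4 with shUSP16#2 alone, all 5 of them members on which the hairpins disagreed. None of these 11 was 2-fold changed under both hairpins. The cause of these shifts was not tested.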

Other observations

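Several genes outside the naming rule, chosen after their values were seen, belong to the related lists, and most of them make products known to bind integrins. FN1, the main ligand of the receptor that holds ITGA5, was at 230 TPM in shCON and at 115 and 71.1 TPM with shUSP16#1 and shUSP16#2, whereas ITGA5 was higher under both hairpins. CD151, a tetraspanin that associates with ITGA3 and ITGA6, was at 376, 503 and 483 TPM. Its log2 changes of 0.42 and 0.36 were 0.07 and -0.13 without the GC trend. PLEC, the plakin that ties ITGB4 to keratin filaments, was at 133, 139 and 145 TPM, while ITGB4 went from 102 to 431 TPM. The talin TLN1, which binds integrin beta subunits, was at 64.3, 64.1 and 65.7 TPM. Among the lysyl oxidases, which crosslink collagen, LOXL1 (89.0, 157 and 157 TPM) and LOXL2 (69.5, 120.0 and 132 TPM) were higher in both hairpin libraries, as LOXL4 was, while LOX (2.66, 1.49 and 1.13 TPM) and LOXL3 were lower. Without the GC trend the log2 changes of LOXL1 were 0.30 and 0.18. None of these values has a replicate check.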
